A study of Homo sapiens with 18 samples.

Results

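The comparison set 6 tumour libraries from mice dosed with DS55980254 at 30 mg/kg against 6 from mice given vehicle, taken by their titles from the 18 libraries of the series. All tumours were xenografts of HCT116 cells, an established human colon cancer line, with PTDSS2 knocked out in both groups, so the vehicle tumours carried the knockout too. Mice were dosed by mouth, the vehicle was 0.5% methylcellulose, and tumours were collected 24 h later. The labels give no strain, sex or age of the mice, do not state whether the knockout line was 1 clone, and do not tie tumours to individual mice. The p-values therefore measure the spread between samples.

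Phosphatidylserine is a membrane lipid made by 2 base-exchange enzymes, PTDSS1, which starts from phosphatidylcholine, and PTDSS2, which starts from phosphatidylethanolamine. The series concerns an inhibitor of PTDSS1 in cancer cells that lack PTDSS2, and the compound given is known from the labels by its code name alone. Cells sense sterol through SCAP and the INSIG proteins in the endoplasmic reticulum: when sterol there is low, the transcription factors SREBP1 and SREBP2, encoded by SREBF1 and SREBF2, are released to the nucleus, where they turn on genes of cholesterol and fatty acid synthesis. ATF4 is a transcription factor whose translation rises when the initiation factor eIF2 is phosphorylated, and its targets include amino acid synthesis, transport and tRNA charging genes. YAP is a coactivator that works with TEAD factors and is held back by the Hippo pathway.

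Of 13644 genes with enough counts to be tested, 191 (1.4%) passed the quasi-likelihood test of edgeR at a Benjamini-Hochberg adjusted p under 0.05. Of these, 147 (1.08%) rose and 44 (0.322%) fell with 30 mg/kg. These shares over all genes are the background for each list count by edgeR with all 12 libraries below. Where a list has 1 call, that is not read as a change of the list. The rises had a median of 1.53-fold, and 21 reached 2-fold. The falls had a median of 0.715-fold, and 2 reached 0.5-fold. The number of calls moved by more than 1.5 times when vehicle replicate 1 (111 calls), 2 (105), 4 (116), 5 (127) or 6 (101), or 30 mg/kg replicate 1 (127) or 6 (117), was left out, and 85 of the 191 genes were called in all 12 fits that each left out 1 library. In 243 genes (1.78%) the 6 libraries of a group did not overlap the other 6, with 30 mg/kg higher in 175 (1.28%) and lower in 68 (0.498%). At an unadjusted p under 0.05 by edgeR there were 1645 of the 13644 genes, the background for list counts at that threshold. DESeq2, a second test, called 249 of the 13644 genes as higher and 107 as lower, the background for its list counts. Bulk RNA cannot tell fewer cells of a type from less RNA per cell.

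Total expected counts ran from 3755044 to 4900612 in 11 libraries and reached 8538792 in 30 mg/kg replicate 1. The second principal component, with 12.6% of the variance, separated the groups, with vehicle libraries at 5.92 to 18.9 and 30 mg/kg libraries at -23.9 to -4.97. The first, with 25%, did not. One library stood apart: 30 mg/kg replicate 5 correlated least with the others (mean correlation 0.956, against 0.962 to 0.971 elsewhere) and had counts in the most genes (20911). Its counts over 345 olfactory receptor genes that are otherwise almost silent summed to 250.3 CPM (the unit of normalised counts used here, scaled to library size), against 7.12 to 48.9 CPM in the other 11. Results for DNA replication, histones, keratins, hypoxia and some genes of amino acid supply are given with and without it below. Markers of colon epithelium were present: 6 of 9 passed the filter (EPCAM, CDH1, KRT8, KRT18, KRT19 and CLDN4), while CDH17, VIL1 and LGALS4, markers of differentiated gut, did not. The 9 summed to 5250 to 6981 CPM with vehicle and 5572 to 7089 CPM with 30 mg/kg, and none was called. No marker of fibroblasts, endothelium, leukocytes, erythroid cells, muscle, skin or fat was called either, but most were not tested. Past the filter were 2 of 10 markers of fibroblasts, 3 of 10 of endothelium and 5 of 15 of leukocytes. For skin it was 3 of 8, for fat 1 of 7, and for erythroid cells and muscle 0. Whether the content of these cells changed is therefore not shown.

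**Figure D1:**
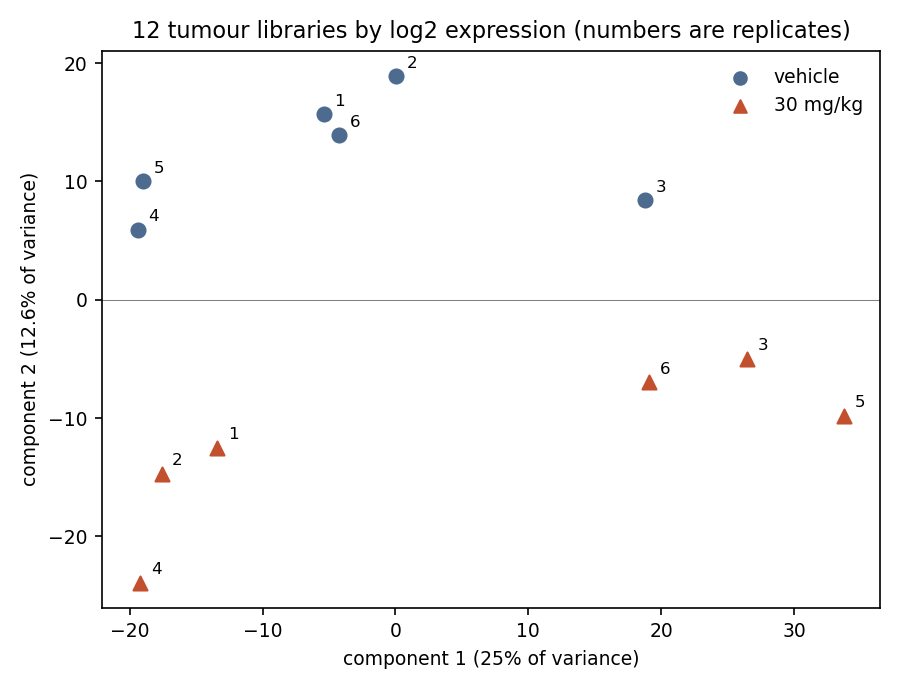
The 12 libraries on the first 2 principal components of log2 expression, each axis with its share of the variance, circles for vehicle and triangles for 30 mg/kg, numbered by replicate. All 6 vehicle libraries lie above 0 on component 2 and all 6 of 30 mg/kg lie below, while component 1 mixes the groups.

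Neither phosphatidylserine synthase gene passed the test. PTDSS1 (Entrez gene 9791) lay at 69.4 to 81.0 CPM with vehicle (median 77.4) and at 61.1 to 74.0 CPM with 30 mg/kg (median 67.0), so the groups overlapped. Its fold change was 0.885 (adjusted p = 0.383 by edgeR). For PTDSS1 on its own, exact permutation of log2(CPM + 0.5) gave a two-sided p = 0.013. PTDSS2 (Entrez gene 81490), the gene named as knocked out, had 4.92 to 11.9 CPM with vehicle and 5.27 to 13.3 CPM with 30 mg/kg (exact permutation p = 0.526). Gene totals do not show whether those transcripts can encode the enzyme. PISD, which decarboxylates phosphatidylserine in mitochondria, was at 0.971-fold (adjusted p = 0.928), and 0 of the 12 genes of phosphatidylserine and mitochondrial phospholipid metabolism passed in edgeR or DESeq2 (3 at an unadjusted p under 0.05), with a median log2 fold change of -0.07.

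Genes of cholesterol synthesis rose as a block. In the mevalonate pathway, 8 of 10 genes rose and 0 fell, with a median log2 fold change of 0.94, beside 0.00 over all genes tested. Among the enzymes that build and trim the sterol ring, 10 of 12 rose and 0 fell, with a median of 0.75. The list score, the mean log2(CPM + 0.5) of a list's genes in a library, was 5.29 to 5.57 with vehicle and 6.17 to 6.31 with 30 mg/kg for the mevalonate genes. For the sterol ring genes it was 5.31 to 5.49 and 6.09 to 6.29, so neither score overlapped between the groups.

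Of 11 genes of the SREBP machinery, 2 rose and 0 fell. INSIG1 (Entrez gene 3638), which holds the SREBP escort protein SCAP in the endoplasmic reticulum and is itself an SREBP target, went from 29.7 to 54.4 CPM with vehicle (median 38.9) to 100.4 to 143 CPM with 30 mg/kg (median 121). That was a 3.04-fold rise (log2 fold change 1.60 ± 0.12 SE, edgeR adjusted p = 8.06e-08), with every 30 mg/kg library above every vehicle library. SREBF2 (Entrez gene 6721), which encodes the SREBP that chiefly drives cholesterol genes, lay at 244 to 276 CPM with vehicle (median 257) and 349 to 415 CPM with 30 mg/kg (median 399), a 1.5-fold rise (adjusted p = 3.55e-05) without overlap. SREBF1, which chiefly drives fatty acid genes, was at 1.19-fold (adjusted p = 0.115) and passed at 1.22-fold (adjusted p = 0.0319) once 30 mg/kg replicate 5 was left out. SCAP was at 0.872-fold (adjusted p = 0.273), INSIG2 at 1.13-fold (0.868), and the proteases MBTPS1 and MBTPS2, which cut SREBPs free, at 0.991-fold and 0.98-fold.

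The promoter of SREBF2 is printed because, among the 190 RefSeq promoters of the genes that rose, it was 1 of 6 to hold the letters of a sterol regulatory element, the SREBP binding sequence, searched as TCACNCCAC on both strands. That share, 3.16%, stood beside 1.04% of all 15609 promoters of 300 bases (250 before to 50 after a start site) found for 10759 of the genes tested. The other matches among genes that rose were in CAPG, CNN3, HYAL1, LINC03040 and MVP, none of them in the mevalonate or sterol ring lists. Of the 49 promoters of genes that fell, 1 held these letters (2.04%, PTCHD4). Sequences are from RefSeq on GRCh38.p14. The SREBF2 stretch lies at chr22:41832855-41833104 (plus strand). Capitals mark the sterol regulatory element, 133 to 125 bases before the start, and CCAAT letters on the opposite strand, 106 to 102 bases before it. CCAAT is the letters bound by NF-Y, a factor that works beside SREBPs at sterol genes.
SREBF2: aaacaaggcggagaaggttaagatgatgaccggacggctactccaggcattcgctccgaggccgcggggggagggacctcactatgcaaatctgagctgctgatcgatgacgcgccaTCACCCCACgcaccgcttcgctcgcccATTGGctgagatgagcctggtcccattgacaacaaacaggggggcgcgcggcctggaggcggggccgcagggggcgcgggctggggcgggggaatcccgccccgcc

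In the mevalonate and sterol ring genes that rose, CCAAT was found in 14 of 18 promoters (77.8%, 13 genes), against 34.7% of all promoters searched. With the genes of these lists that did not pass included, it was in 16 of 24 (66.7%). The share was 37.4% over all genes that rose and 42.9% over all that fell. In genes of DNA replication the share was 57.4%. No promoter of the mevalonate and sterol ring genes (0 of 24) held TCACNCCAC, which says only that these letters are not in those windows. Of the sterol enzymes, MSMO1 (chr4:165327419-165327668 (plus strand)) and NSDHL (chrX:152830813-152831062 (plus strand)) are shown because their promoters held several copies. Capitals mark CCAAT on either strand. In NSDHL, 2 of the copies, on opposite strands, overlap.
MSMO1: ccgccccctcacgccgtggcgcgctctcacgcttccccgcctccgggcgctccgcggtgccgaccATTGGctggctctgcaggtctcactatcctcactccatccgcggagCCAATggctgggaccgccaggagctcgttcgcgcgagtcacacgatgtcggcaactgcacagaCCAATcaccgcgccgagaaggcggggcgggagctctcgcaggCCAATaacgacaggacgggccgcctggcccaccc
NSDHL: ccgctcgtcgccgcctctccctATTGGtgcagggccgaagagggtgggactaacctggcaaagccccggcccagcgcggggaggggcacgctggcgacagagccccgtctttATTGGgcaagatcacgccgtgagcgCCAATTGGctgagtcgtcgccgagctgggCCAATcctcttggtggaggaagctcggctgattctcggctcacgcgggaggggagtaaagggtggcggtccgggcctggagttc

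HMGCS1 (Entrez gene 3157), which makes HMG-CoA, had the smallest p-value of all genes tested. It lay at 59.6 to 74.1 CPM with vehicle (median 69.0) and at 158 to 212 CPM with 30 mg/kg (median 187). The rise was 2.74-fold (log2 fold change 1.45 ± 0.09 SE, adjusted p = 2.53e-09 by edgeR). ACAT2, which forms the acetoacetyl-CoA used before it, went from 20.7 to 27.4 CPM (median 22.0) to 47.6 to 61.9 CPM (median 53.5), a 2.36-fold rise. Neither gene overlapped between the groups.

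Later steps followed the same direction. MVD, which makes isopentenyl diphosphate, rose 1.92-fold, and IDI1, which isomerises it, rose 2.10-fold. FDPS, which makes farnesyl diphosphate, rose 1.75-fold, and FDFT1, which joins 2 of these into squalene, rose 1.92-fold from 149 to 189 CPM to 291 to 335 CPM. MVK, mevalonate kinase, rose 1.76-fold (edgeR adjusted p = 0.0139) with overlapping groups, and without vehicle replicate 6 its adjusted p was 0.0511. The 2 that did not pass were PMVK, the next kinase (1.09-fold, adjusted p = 0.882), and GGPS1, which branches off to geranylgeranyl diphosphate (1.06-fold, adjusted p = 0.9).

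MSMO1 (Entrez gene 6307), a sterol C4 methyl oxidase, had the largest rise among the sterol ring enzymes. It lay at 22.2 to 33.9 CPM with vehicle (median 25.4) and 53.1 to 85.6 CPM with 30 mg/kg (median 68.3), 2.60-fold higher (edgeR adjusted p = 7.46e-07). SQLE, which oxidises squalene, rose 1.85-fold, LSS, which closes the ring, rose 1.83-fold, and CYP51A1, the lanosterol demethylase, rose 1.87-fold. DHCR7, a reductase at the end of the pathway, rose 2.00-fold. NSDHL (1.67-fold), SC5D (1.57-fold) and EBP (1.56-fold) rose as well. HSD17B7 rose 1.70-fold (adjusted p = 0.0196), a call that ended in 5 of the 12 fits leaving out 1 library (adjusted p up to 0.061), and reads of its pseudogene HSD17B7P2 (2.20-fold) may not be separable from it. The sterol reductases LBR (1.16-fold, adjusted p = 0.361) and TM7SF2 (1.32-fold, adjusted p = 0.11) did not pass.

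Of 18 genes of cholesterol uptake and transport, 4 rose and 0 fell, with a median log2 fold change of 0.10. STARD4, a carrier of cholesterol between membranes, lay at 21.5 to 23.9 CPM with vehicle and 25.4 to 58.2 CPM with 30 mg/kg (1.87-fold). The lowest of its 30 mg/kg libraries was replicate 5. TMEM41B, a scramblase of the endoplasmic reticulum, rose 1.37-fold (adjusted p = 0.0374), a call lost in 9 of 12 fits with 1 library left out. The other 14 of the 18 genes of this list did not pass, among them NPC1 (1.26-fold), SCARB1 (1.25-fold) and the exporter ABCA1 (0.786-fold, adjusted p = 0.516).

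**Figure D2:**
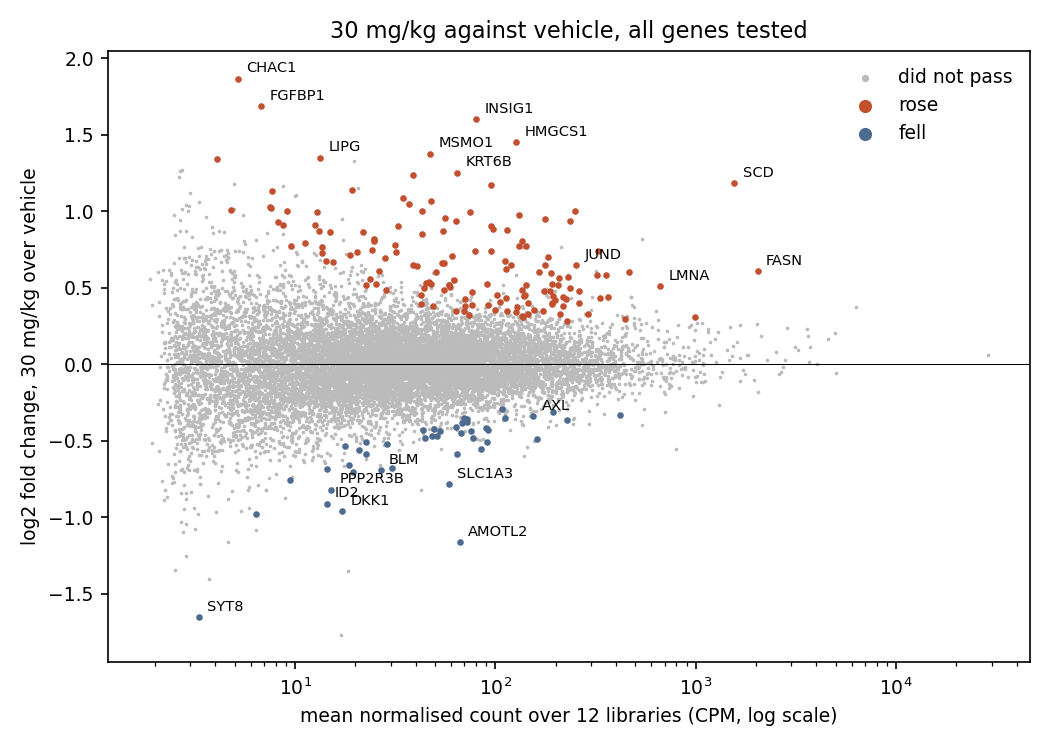
Log2 fold change of 30 mg/kg over vehicle against mean level (CPM, log axis) for all 13644 genes tested, coloured where they rose or fell at an adjusted p under 0.05. Sterol genes such as INSIG1 and HMGCS1 stand highest at middle levels, SCD and FASN lie at the right, and AMOTL2 is the lowest called gene at its level.

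Fatty acid synthesis rose in 8 of 26 genes tested and fell in 0, with a median log2 fold change of 0.28. SCD (Entrez gene 6319), the desaturase that makes oleate, lay at 827 to 1222 CPM with vehicle (median 911) and 1922 to 2621 CPM with 30 mg/kg (median 2125), a 2.27-fold rise (edgeR adjusted p = 1.89e-07) without overlap. ACSS2, the cytosolic acetyl-CoA synthetase that uses acetate, rose 1.94-fold. FASN, fatty acid synthase, rose 1.53-fold. ACLY, which makes acetyl-CoA from citrate, lay at 279 to 290.5 CPM with vehicle and 358 to 408 CPM with 30 mg/kg, a 1.35-fold rise without overlap. With the spread of all 18 libraries ACLY did not pass (adjusted p = 0.428 by edgeR). HSD17B12, of the elongation cycle, rose 1.58-fold, and ACSL3, which activates fatty acids, rose 1.36-fold. PNPLA3, a lipid droplet acyl hydrolase, rose 1.60-fold (adjusted p = 0.0504 without vehicle replicate 2). ACACA, acetyl-CoA carboxylase, was called at 1.23-fold (adjusted p = 0.0348) but in 9 of 12 fits without 1 library it did not pass. ELOVL6 (1.43-fold, adjusted p = 0.0537), ME1 (1.30-fold, adjusted p = 0.0506) and FADS1 (1.29-fold, adjusted p = 0.177) did not pass.

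Few genes of phospholipid synthesis moved. LPIN1 (Entrez gene 23175), a phosphatidate phosphatase and an SREBP target, went from 26.6 to 31.9 CPM (median 28.7) to 38.0 to 67.3 CPM (median 59.2), a 2.00-fold rise (adjusted p = 4.28e-05 by edgeR). PCYT2 (Entrez gene 5833), which makes CDP-ethanolamine for phosphatidylethanolamine, went from 60.1 to 68.8 CPM (median 62.6) to 79.8 to 101 CPM (median 88.2), a 1.39-fold rise (adjusted p = 0.00246). Neither gene overlapped between the groups. PCYT2 was the 1 member called of 10 in the Kennedy pathway, which builds phosphatidylcholine and phosphatidylethanolamine. CHKA, choline kinase, was at 0.839-fold (adjusted p = 0.295) and PCYT1A, the CDP-choline enzyme, at 1.16-fold (adjusted p = 0.484). GPAT3, an acyltransferase of the first step, had 4.73 to 9.30 CPM against 2.19 to 4.21 with vehicle, but its call (adjusted p = 0.0413) was lost in 10 of 12 fits without 1 library. Of 17 sphingolipid genes 0 passed in edgeR or DESeq2 (1 at an unadjusted p under 0.05). LIPG (Entrez gene 9388), endothelial lipase, which cleaves phospholipids of lipoproteins, lay at 5.37 to 9.63 CPM with vehicle and 13.9 to 26.4 CPM with 30 mg/kg, a 2.55-fold rise (adjusted p = 0.000406), and was the 1 gene called of 12 lipases and droplet genes.

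**Figure D3:**
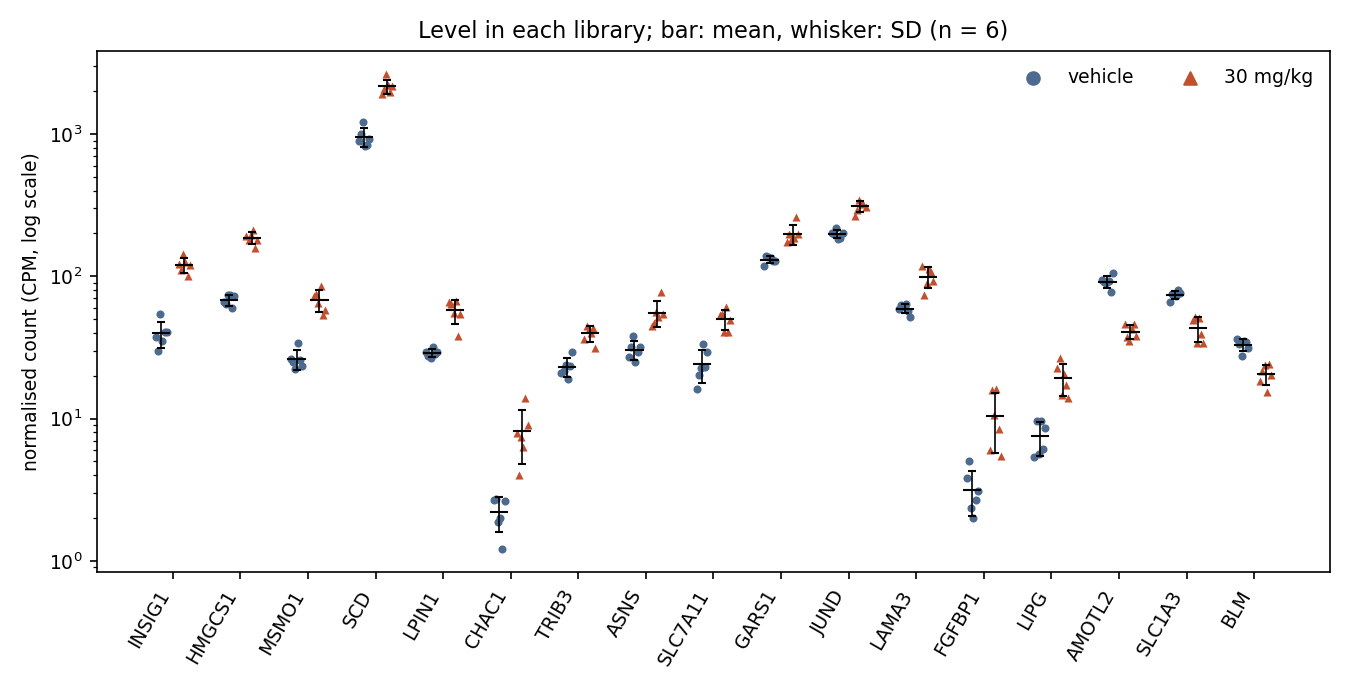
Normalised counts (CPM, log axis) of 17 genes in each library, circles for vehicle and triangles for 30 mg/kg, with the mean as a bar and the SD as a whisker (n = 6 each). In all 17 genes the groups do not overlap: 14 genes lie higher with 30 mg/kg, and AMOTL2, SLC1A3 and BLM lie lower.

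Of 22 ATF4 regulators and targets tested, 4 rose and 0 fell (8 and 0 by DESeq2), 20 had a fold change above 1, and the median log2 fold change was 0.34. The score was 5.52 to 5.80 with vehicle and 5.94 to 6.14 with 30 mg/kg. CHAC1 (Entrez gene 79094), which degrades glutathione, had the largest rise among called genes above 5 CPM on average. It lay at 1.22 to 2.72 CPM with vehicle (median 2.32) and 3.99 to 14.0 CPM with 30 mg/kg (median 7.68), 3.65-fold higher (log2 fold change 1.87 ± 0.29 SE, edgeR adjusted p = 0.00093). TRIB3, a pseudokinase that restrains ATF4, rose 1.72-fold from 19.1 to 29.5 CPM to 31.4 to 44.4 CPM. CEBPG, a partner of ATF4 in DNA binding, rose 1.42-fold, also without overlap. ATF4 itself rose 1.52-fold with overlapping groups (305 to 455 and 422 to 692 CPM, adjusted p = 0.0397), a call lost in 8 of 12 fits that left out 1 library. ATF3 (1.55-fold, adjusted p = 0.0576) and DDIT3, which encodes CHOP (1.34-fold, adjusted p = 0.512), did not pass. Of 23 genes of the unfolded protein response 0 passed in edgeR or DESeq2 (4 at an unadjusted p under 0.05, median log2 fold change 0.04), and the chaperone HSPA5 was at 0.971-fold (adjusted p = 0.886).

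Promoters with the letters of the ATF4 response element, searched as TGATGNAA on both strands, made up 8 of 190 promoters of genes that rose (4.21%, AARS1, ASNS, CARS1, CEBPG, CHAC1, GARS1, MARS1 and TRIM2) and 1.92% of all promoters searched. Of the 49 promoters of genes that fell, 2 held it (4.08%, AJUBA and SLC1A3). Among cytoplasmic tRNA synthetases it was in 7 of 21 promoters (33.3%), of which those of IARS1, NARS1 and TARS1 belonged to genes that did not pass. Over all 15609 promoters searched, matches of different motifs overlapped in 5. Printed below are CHAC1 (chr15:40953221-40953470 (plus strand)), ASNS (chr7:97872409-97872658 (minus strand)) and AARS1 (chr16:70289507-70289756 (minus strand)), 1 gene each of glutathione breakdown, amino acid synthesis and tRNA charging. Capitals mark the ATF4 element only, 209 to 202 bases before the start in CHAC1, 68 to 61 in ASNS and 187 to 180 in AARS1. It reads on the opposite strand in CHAC1 and AARS1.
CHAC1: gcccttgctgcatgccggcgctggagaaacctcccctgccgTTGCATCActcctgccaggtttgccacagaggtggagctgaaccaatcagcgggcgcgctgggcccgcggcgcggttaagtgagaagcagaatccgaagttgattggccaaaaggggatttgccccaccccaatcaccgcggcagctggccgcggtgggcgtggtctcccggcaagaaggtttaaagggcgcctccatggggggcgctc
ASNS: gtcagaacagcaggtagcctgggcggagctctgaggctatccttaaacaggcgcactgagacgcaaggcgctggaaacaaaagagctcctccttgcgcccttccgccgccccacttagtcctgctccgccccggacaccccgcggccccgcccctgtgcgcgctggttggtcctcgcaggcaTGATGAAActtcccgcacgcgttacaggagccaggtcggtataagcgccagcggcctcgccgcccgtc
AARS1: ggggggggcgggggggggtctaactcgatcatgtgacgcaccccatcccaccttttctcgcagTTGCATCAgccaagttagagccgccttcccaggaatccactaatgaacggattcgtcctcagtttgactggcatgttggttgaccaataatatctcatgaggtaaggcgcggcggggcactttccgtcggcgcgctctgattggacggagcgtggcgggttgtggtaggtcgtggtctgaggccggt

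ASNS (Entrez gene 440), asparagine synthetase, lay at 25.1 to 38.3 CPM with vehicle (median 30.4) and 44.7 to 77.4 CPM with 30 mg/kg (median 53.2), a 1.81-fold rise (edgeR adjusted p = 0.000872) without overlap. MTHFD2, of mitochondrial one-carbon metabolism, passed at 1.28-fold, but not in 10 of 12 fits without 1 library. PSAT1 (1.36-fold, adjusted p = 0.109) and PHGDH (1.17-fold, adjusted p = 0.427), of serine synthesis, did not pass, so 2 of 20 amino acid synthesis genes were called. Of 20 cytoplasmic tRNA synthetases, 4 rose and 0 fell: GARS1 1.52-fold (118 to 138 CPM, then 175 to 261 CPM), AARS1 1.43-fold, MARS1 1.40-fold and CARS1 1.44-fold. CARS1 had adjusted p-values of 0.0544 and 0.0504 without vehicle replicate 1 or 2. In ASNS, GARS1, AARS1 and CHAC1, 30 mg/kg replicate 5 was the highest of the 12 libraries. Without that library ASNS was at 1.67-fold, GARS1 at 1.43-fold, AARS1 at 1.35-fold and CHAC1 at 3.17-fold, all still called. In that fit 1 of 20 amino acid synthesis genes and 4 of 20 synthetases rose.

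Amino acid transporters moved both ways. SLC7A11 (Entrez gene 23657), the cystine importer that feeds glutathione synthesis, went from 16.1 to 33.5 CPM (median 22.9) to 40.7 to 61.0 CPM (median 51.1), a 2.07-fold rise (edgeR adjusted p = 0.000393). SLC38A2, a transporter of small neutral amino acids, rose 1.36-fold, but did not pass with the spread of all 18 libraries (adjusted p = 0.721 by edgeR). SLC6A9, a glycine transporter, rose 1.73-fold (lost in 5 of 12 fits without 1 library, adjusted p up to 0.0833). SLC1A3 (Entrez gene 6507), an importer of glutamate and aspartate, fell to 0.581-fold, from 66.4 to 80.1 CPM (median 75.0) to 33.7 to 51.9 CPM (median 44.0), with adjusted p = 0.000355. The groups did not overlap for SLC7A11 or SLC1A3. SLC7A2, which imports cationic amino acids, fell to 0.622-fold with a call lost in 7 of 12 such fits. In all, 3 of 19 transporters rose and 2 fell. Of 22 targets of NRF2, the factor of the oxidative stress response, SLC7A11 was the 1 called.

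Genes of the early response to growth signals and stress rose in 6 of 32 cases and fell in 0, with a median log2 fold change of 0.30. DESeq2 called 9 of them as higher and 1 as lower. Without 30 mg/kg replicate 5 the edgeR test called 8 as higher and 1, the transcription factor MYC, as lower (0.719-fold, adjusted p = 0.00835). With all 12 libraries MYC was at 0.761-fold (adjusted p = 0.0643). JUND (Entrez gene 3727), an AP-1 subunit, lay at 182 to 218 CPM with vehicle (median 199) and 263 to 346 CPM with 30 mg/kg (median 314), a 1.57-fold rise (edgeR adjusted p = 4.19e-05). JUN, another AP-1 subunit, also rose 1.57-fold, from 123 to 173 CPM (median 133) to 209 to 231 CPM (median 212). DUSP4, a phosphatase of MAP kinases, rose 1.5-fold, and the zinc finger factor KLF6 rose 1.51-fold. EGR3 (2.03-fold) and KLF10 (1.24-fold) passed but lost their calls in 6 and 10 of 12 fits without 1 library. AREG, the EGFR ligand amphiregulin, rose 1.48-fold from 145 to 192 CPM to 219 to 272 CPM, and was the 1 call among 11 EGFR ligands and receptors. EGFR itself was at 1.00-fold (adjusted p = 0.997). Of 19 NF-kB genes, BIRC3 (1.64-fold) and NFKBIA (1.41-fold) rose, with calls lost in 7 and 10 of 12 such fits.

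Among 27 targets of YAP and TEAD, 4 fell and 1 rose, with a median log2 fold change of -0.18. The list score was 5.46 to 5.58 with vehicle and 5.23 to 5.43 with 30 mg/kg. AMOTL2 (Entrez gene 51421), a junction protein that binds YAP, had 77.4 to 105 CPM with vehicle (median 91.7) and 35.0 to 46.5 CPM with 30 mg/kg (median 40.2). Every 30 mg/kg library lay below every vehicle library, and the fold change was 0.447 (log2 fold change -1.16 ± 0.10 SE, edgeR adjusted p = 2.79e-07). ARHGEF17, a guanine nucleotide exchange factor, fell to 0.665-fold. AJUBA, a LIM protein that binds LATS kinases, fell to 0.625-fold, and AXL, a receptor kinase, to 0.79-fold, with calls lost in 4 and 6 of 12 fits without 1 library. NT5E, which makes adenosine at the cell surface, rose 1.76-fold from 12.3 to 21.7 CPM to 26.5 to 40.5 CPM. CCN2, connective tissue growth factor and a widely used YAP target, was at 0.514-fold (adjusted p = 0.0704, and 0.0388 at 0.471-fold without 30 mg/kg replicate 5), and CCN1 at 0.681-fold (adjusted p = 0.237). THBS1, which encodes thrombospondin-1, fell to 0.615-fold (adjusted p = 0.0162, and 0.0563 without vehicle replicate 2).

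The mean level of DNA replication genes was below every vehicle library in 5 of the 6 dosed libraries, and at the vehicle level in the other. Of 44 genes tested, 43 had a fold change below 1 and the median log2 fold change was -0.29, but E2F7, a repressor of the E2F family, was the 1 call (0.746-fold, adjusted p = 0.0358, lost in 8 of 12 fits without 1 library). DESeq2 called 6 of them as lower, beside 107 of all 13644 genes. The list score was 5.70 to 5.83 with vehicle, 5.27 to 5.55 in 5 of the 30 mg/kg libraries and 5.83 in 30 mg/kg replicate 5. Without that library 83 of all 13749 genes fell by the edgeR test, and 13 of the 44 did so, at a median of -0.39. They included TYMS, thymidylate synthase (0.735-fold, adjusted p = 0.00454), the helicase subunits MCM5 (0.737-fold), MCM7 (0.746-fold) and MCM2 (0.745-fold), the flap nuclease FEN1 (0.723-fold), the sliding clamp PCNA (0.758-fold) and the licensing factor CDT1 (0.759-fold). With all 12 libraries these were at adjusted p = 0.0561 (CDT1) to 0.433 (PCNA). The list counts without replicate 5 were added after its values were seen. Leaving out the dosed library at the vehicle level by itself favours more falls in this list.

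Replication-dependent histone genes behaved alike. All 47 that passed the filter, of 69, had a fold change below 1, at a median log2 fold change of -0.30, and 3 fell: H2AC13 (0.731-fold, adjusted p = 0.0135), H1-2 (0.795-fold, adjusted p = 0.0314) and H2BC18 (0.778-fold, adjusted p = 0.0358) by edgeR, against 8 by DESeq2. The calls of H1-2 and H2BC18 were lost in 8 and 10 of 12 fits without 1 library. H2BC18 lay at 234 to 274 CPM with vehicle, 177 to 199.7 CPM in 5 libraries of 30 mg/kg and 253 CPM in replicate 5. The list score was 6.22 to 6.37 with vehicle, 5.87 to 5.92 in those 5 and 6.29 in replicate 5. Without it 13 of 48 histone genes fell, at a median of -0.38, beside 83 of all 13749 genes. Several of the 13 are near-identical copies (H2AC18 and H2AC19, H3C14 and H3C15, H4C14 and H4C15) whose reads cannot be told apart, so the number of separate genes is uncertain. Whether the state of replicate 5 shown by its olfactory receptor counts plays a part in its replication and histone levels was not tested.

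BLM (Entrez gene 641), the helicase mutated in Bloom syndrome, fell to 0.62-fold, from 27.3 to 36.2 CPM (median 33.9) to 15.2 to 24.1 CPM (median 20.8), with adjusted p = 0.00375 by edgeR and no overlap. It was the 1 call of 22 recombination and helicase genes, at a median log2 fold change of -0.24, and DESeq2 called 5 of the 22 as lower. Without 30 mg/kg replicate 5 the calls were 4, with FANCI (0.751-fold), RAD54L (0.656-fold) and FANCA (0.737-fold) added. Over all 13749 genes 83 fell in that fit. Of 34 genes of G2 and mitosis 0 passed in edgeR or DESeq2 (4 at an unadjusted p under 0.05, median -0.09), with MKI67 at 0.831-fold (adjusted p = 0.344) and TOP2A at 0.905-fold (adjusted p = 0.643). Their score was 6.39 to 6.59 with vehicle, 6.21 to 6.36 in 5 libraries of 30 mg/kg and 6.64 in replicate 5. Of 23 p53 targets 0 passed in edgeR or DESeq2 (5 at an unadjusted p under 0.05), with CDKN1A at 1.23-fold (adjusted p = 0.497). PMAIP1, which encodes the apoptosis activator NOXA, rose 1.59-fold from 80.6 to 99.1 CPM (median 84.1) to 112 to 165 CPM (median 136), with adjusted p = 0.00122, the 1 call of 15 BCL2 family genes.

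**Figure D4:**
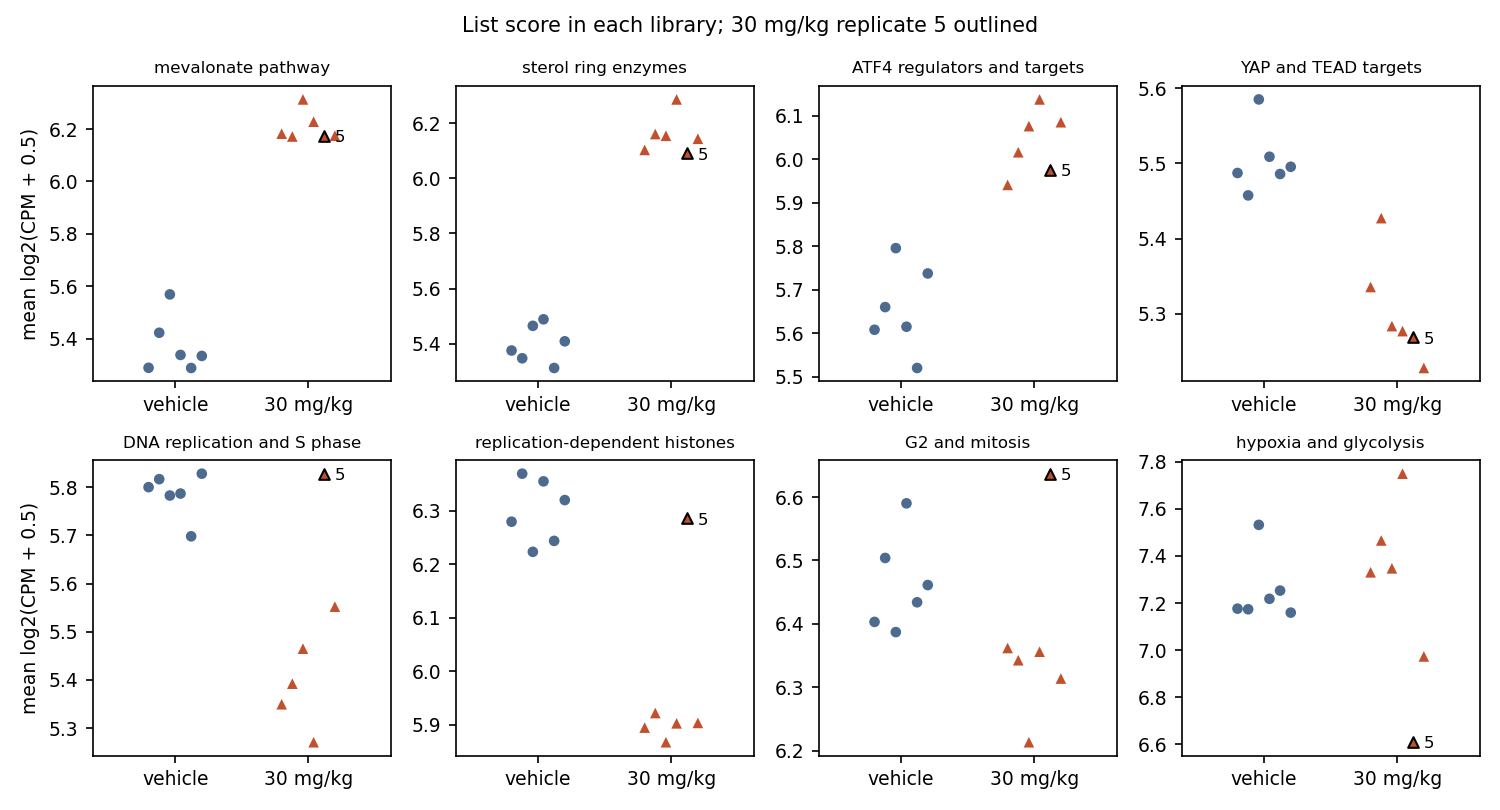
List score (mean log2(CPM + 0.5) of a list's genes) in each library for 8 lists, circles for vehicle and triangles for 30 mg/kg, with 30 mg/kg replicate 5 outlined and numbered. That library lies with its group for the mevalonate, sterol ring, ATF4 and YAP lists, but lies within the vehicle range for DNA replication and histones, above every other library for G2 and mitosis, and below every other library for hypoxia.

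Genes of epithelial attachment rose in 5 of 21 cases and fell in 0, with a median log2 fold change of 0.20. Over all genes tested 1.08% rose and 0.322% fell. LAMA3 (Entrez gene 3909) and LAMB3, laminin subunits of the basement membrane, rose 1.67-fold and 1.39-fold. LAMA3 lay at 52.0 to 63.4 CPM with vehicle and 73.8 to 119 CPM with 30 mg/kg, without overlap. DSC2, a desmosome cadherin, rose 1.48-fold, from 179 to 192 CPM to 257 to 320.3 CPM (edgeR adjusted p = 7.48e-05). ITGA6, a laminin receptor, passed at 1.26-fold and lost its call in 7 of 12 fits without 1 library. KRT6B, a keratin of activated epithelium, was called at 2.38-fold (31.1 to 60.5 CPM, then 38.6 to 116 CPM, adjusted p = 0.0337), but 10 of 12 fits without 1 library did not call it, replicate 5 among them (adjusted p = 0.0589), and its near copy KRT6A was at 2.15-fold (adjusted p = 0.142). Beside these, 8 markers of skin keratinocytes summed to 105 to 238 CPM with vehicle and 181 to 311 CPM with 30 mg/kg. Of the 8, 3 passed the filter and 0 were called: KRT5 (1.40-fold), KRT14 (1.44-fold) and KRT10 (log2 fold change 0.62). All 3 were higher with 30 mg/kg, 2 of them at an unadjusted p under 0.05 by edgeR. The part of these markers in the rise of attachment genes was not tested.

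Other named changes lay outside these pathways. FGFBP1, a carrier of fibroblast growth factors, rose 3.22-fold from 2.01 to 5.02 CPM to 5.48 to 16.0 CPM. TSC22D3, a glucocorticoid-induced and FOXO-linked leucine zipper, rose 2.13-fold from 18.1 to 26.6 CPM to 37.5 to 55.8 CPM, and was the 1 call of 14 FOXO and quiescence genes. LBH, a transcription cofactor, rose 2.20-fold from 9.23 to 15.7 CPM to 20.6 to 38.6 CPM. PPP2R3B, a regulatory subunit of phosphatase 2A, fell to 0.566-fold, from 14.3 to 22.1 CPM to 8.65 to 12.5 CPM. None of these 4 genes overlapped between groups or lost its call in a fit without 1 library. DKK1, a secreted Wnt inhibitor, fell to 0.514-fold with overlap (13.6 to 34.8 CPM, then 8.64 to 18.2 CPM, adjusted p = 0.0289 by edgeR), a call lost in 7 of 12 such fits, and was the 1 call of 13 Wnt feedback genes. ID2 (0.532-fold), PAN3-AS1 (0.506-fold, an antisense gene whose strand of counting is not stated) and PTCHD4 (0.59-fold) lost theirs in 8, 6 and 10.

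**Figure D5:**
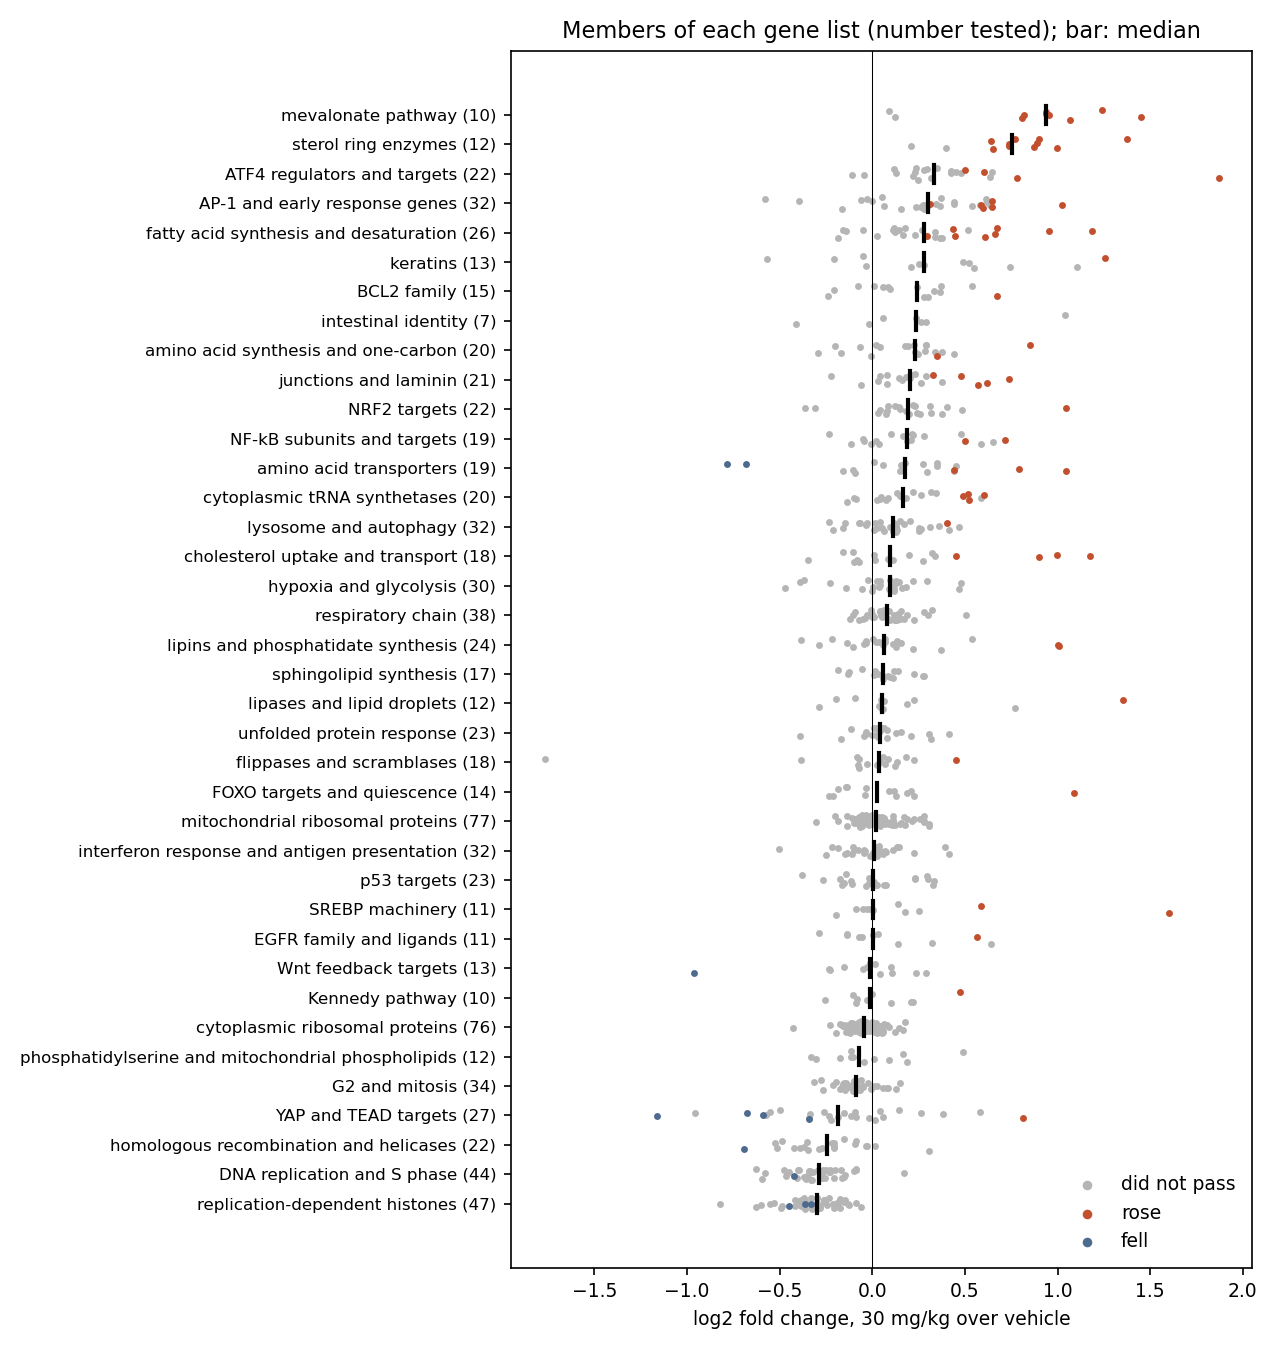
Log2 fold change of each gene tested in 38 lists, coloured where it rose or fell at an adjusted p under 0.05, with a bar at each list's median and the number of genes tested in brackets. The mevalonate and sterol ring lists lie at the top with medians of 0.94 and 0.75, and the histone and DNA replication lists at the bottom with medians of -0.30 and -0.29.

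Among 30 hypoxia and glycolysis genes 0 passed in edgeR (4 at an unadjusted p under 0.05) and 1 in DESeq2, VEGFA, at 1.39-fold (adjusted p = 0.0576 by edgeR), while 3 rose without 30 mg/kg replicate 5: VEGFA (1.47-fold), ALDOC (1.51-fold) and P4HA2 (1.28-fold). Over all 13749 genes 168 rose in that fit. The hypoxia score was 7.16 to 7.53 with vehicle, 6.97 to 7.75 in 5 libraries of 30 mg/kg and 6.61 in replicate 5. Of 32 interferon and antigen presentation genes, 38 respiratory chain genes, 76 cytoplasmic and 77 mitochondrial ribosomal proteins, 0 passed in edgeR or DESeq2 (1, 0, 1 and 0 at an unadjusted p under 0.05). Their medians were 0.01, 0.08, -0.05 and 0.02, and those of interferon and mitochondrial ribosomal genes turned to -0.02 and -0.01 with libraries scaled by their totals. SQSTM1, an autophagy receptor, was the 1 of 32 lysosome and autophagy genes called (1.32-fold, lost in 6 of 12 fits without 1 library).

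The 30 mg/kg tumours were also set against 6 tumours dosed at 10 mg/kg, in a fit of all 18 libraries. Of 14074 genes tested, 0 (0%) differed between the doses by edgeR, with 496 at an unadjusted p under 0.05, and DESeq2 also called 0, with 735. For scale, evenly spread p-values over 13644 genes, slightly fewer than tested here, would put 682 under 0.05. One of the low-dose libraries, 10 mg/kg replicate 2, had a total of 433981 counts, and without it 0 were called, with 458 at an unadjusted p under 0.05. In that fit 66 genes (0.469%) passed for 10 mg/kg against vehicle and 87 (0.618%) for 30 mg/kg against vehicle. These 2 comparisons share the vehicle libraries.

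Side by side, INSIG1 was 2.80-fold over vehicle at 10 mg/kg and 3.03-fold at 30 mg/kg, a log2 difference of 0.11 (95% interval -0.13 to 0.36). HMGCS1 was 2.34-fold and 2.73-fold (difference 0.22, interval -0.09 to 0.53), and MSMO1 2.16-fold and 2.59-fold (0.26, -0.09 to 0.61). ASNS was 1.41-fold and 1.80-fold, with a difference of 0.36 (0.03 to 0.69) that did not pass over all genes (adjusted p = 0.969 by edgeR). GARS1 was 1.32-fold and 1.52-fold (0.20, -0.05 to 0.45), SLC7A11 1.68-fold and 2.06-fold (0.30, -0.06 to 0.66), and CHAC1 2.98-fold and 3.64-fold (0.29, -0.30 to 0.88). AMOTL2 was 0.531-fold and 0.446-fold (-0.25, -0.51 to 0.01), while JUN was 1.79-fold and 1.56-fold (-0.19, -0.48 to 0.09). The intervals of INSIG1, HMGCS1, MSMO1, GARS1, SLC7A11, CHAC1, AMOTL2 and JUN include 0.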

How the data were processed

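Per the labels' protocols, tumours were homogenised, their RNA was purified on the Promega Maxwell system, and 5 ng of it went into each Clontech SMARTer Stranded pico-input library. The submitters' processing notes name STAR 2.4.2a and the builds hg19 and mm10 without a role for each. Not given in the sources used here were the counter, its use of strand, the annotation and the way human and mouse reads were separated. Per the file headers, the authors deposited, for each library, expected counts and TPM for 25343 human genes in the layout of RSEM. Entrez IDs gave symbols for 25220 genes directly and 26 by transcript accession, and 97 stayed unnamed.

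Expected counts of the 12 libraries were rounded, filtered by filterByExpr, scaled by TMM and fitted in edgeR 4.0.16 (R 4.3.3) by quasi-likelihood with robust dispersions. The threshold was a Benjamini-Hochberg adjusted p under 0.05 over all genes tested. Levels are CPM scaled by TMM and are compared within a gene only, since they are not per length. SEs were taken from the fold change and its F statistic. The model was tested on simulated data. Genes named are PTDSS1 and PTDSS2, the 15 largest rises and 10 largest falls above a mean of 5 CPM (small, uncharacterised and unannotated RNA genes left out), up to 6 called members of each list, and up to 2 uncalled members of a list with no call. Other genes were chosen after their values were seen, and a few genes that the rule takes are not reported here. The members, the 38 gene lists and the 8 marker lists were chosen with earlier results of these data known. Alternatives were other scalings, filters, DESeq2 1.42.0, limma 3.58.1, the deposited TPM as log2(TPM + 1), all 18 libraries, a replicate block, and each library left out. No library was a duplicate of another (chi-square per degree of freedom 2.46 to 16.5 within groups).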

Additional observations from a re-analysis of the deposited data

Results flagged for a closer look

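In groups of 6, a value was set apart when its gap to the nearest library exceeded 0.625 of the group's range (Dixon's 95% critical value). Of 222 groups tested, 21 had such a value, where chance gives about 1 in 20, and 8 of the 21 were in 30 mg/kg replicate 5. In that library genes of amino acid supply and tRNA charging stood above the other 5 dosed libraries: ASNS at 77.4 CPM, MTHFD2 at 159 CPM, SLC6A9 at 20.2 CPM, GARS1 at 261 CPM and AARS1 at 309.7 CPM. It also stood above them in H2BC18 (253 CPM), the histone score (6.29) and the score of G2 and mitosis (6.64).

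Vehicle replicate 3 was the highest vehicle library for JUN (173 CPM), PMAIP1 (99.1 CPM), KRT6B (60.5 CPM), VEGFA (209 CPM), the early response score (5.97) and the hypoxia score (7.53). Vehicle replicate 4 was highest for MSMO1 (33.9 CPM), vehicle replicate 1 for HNF4A, a factor of gut identity (4.03 CPM), and vehicle replicate 5 was lowest for the DNA replication score (5.70). Among dosed libraries, replicate 3 was highest for DKK1 (18.2 CPM) and MVD (106 CPM), replicate 4 for the sterol ring score (6.29), and replicate 1 had the largest total (8538792 counts).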

How the results depend on the processing

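The 191 calls (77% rises) became 356 with the DESeq2 test, 127 with limma on log2(TPM + 1) and 87 with the spread of all 18 libraries, which holds 87 of the 191. With 1 library left out the count ran from 101 to 278, and without 30 mg/kg replicate 5 it was 251 (168 rises and 83 falls). Scaling by library totals kept 191 but moved the split to 121 rises and 70 falls, with the median of all genes at -0.03 and non-overlapping genes at 146 higher and 94 lower. Of 76 named calls, 51 held in all 12 fits that left out 1 library, DESeq2 kept 76, limma-voom 67, limma on TPM 59 and the 18-library spread 51. Of the named genes only PTDSS2, called in no setting, changed sign: its log2 fold change ran from -0.35 to 0.0074 with 1 library left out. DESeq2 called 5 recombination genes as lower, where edgeR called 1, and 3 NF-kB and 3 NRF2 genes as higher, where edgeR called 2 and 1. Correlations between same-numbered vehicle and 30 mg/kg libraries were -0.187 to 0.265. For 3 of 6 vehicle libraries the best dosed partner had the same number, so whether replicate numbers pair the libraries was not settled. With the replicate block there were 164 calls (133 rises and 31 falls), and 0 between the doses. The doses gave 0 calls in every setting run (412 to 991 at an unadjusted p under 0.05). Depth limits genes of few counts, such as CHAC1 and FGFBP1.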

Other observations

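Genes outside the lists were also called in all 12 fits that left out 1 library, without overlap between the groups. They were picked here after their values were seen. RHOB, a small GTPase of endosomes and the cytoskeleton, lay at 117 to 155 CPM with vehicle (median 141) and 206 to 255 CPM with 30 mg/kg (median 225), a 1.63-fold rise (adjusted p = 4.19e-05 by edgeR). RHOC, a related GTPase, rose 1.44-fold. ZNF385A, a zinc finger protein, rose 1.71-fold from 89.7 to 104 CPM to 143 to 202 CPM. SERPINB1, a protease inhibitor, rose 1.71-fold, SDC4, the heparan sulphate proteoglycan syndecan-4, 1.44-fold, CD55, which restrains complement, 1.68-fold, and LMNA, which encodes lamin A and C, 1.42-fold. SOCS1, a brake on cytokine signalling, rose 1.66-fold from 19.5 to 28.6 CPM to 34.8 to 46.2 CPM.

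Of the 44 genes that fell, 12 were in a list, and those described next were picked from the others after their values were seen. MSH6, of mismatch repair, fell to 0.749-fold, from 96.3 to 113 CPM to 72.3 to 91.1 CPM (edgeR adjusted p = 0.00984), and held in all 12 fits without 1 library. POLQ, a polymerase of end joining, fell to 0.739-fold (adjusted p up to 0.0545 without vehicle replicate 4 or 6), and EME1, a subunit of a structure-specific nuclease, to 0.634-fold, a call lost in 4 such fits. HELLS (0.714-fold), CHTF18 (0.704-fold), PIF1 (0.691-fold) and TICRR (0.815-fold) passed with all 12 libraries and lost their calls in 7 to 10 such fits. SYT8, a synaptotagmin, was the lowest called fold change (0.318), with 2.41 to 6.26 CPM with vehicle and 1.2 to 2.80 CPM with 30 mg/kg, so the groups overlapped at few counts.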
